A study of Mus musculus with 12 samples.

Results

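The clustered histone genes of mouse fibroblasts were followed through oxygen deprivation in 2 cell lines. The genes were all protein-coding entries of the raw count table with a name beginning Hist1h, Hist2h, Hist3h or Hist4h, which gave 67 of 54446 entries. By the class in the name there were 6 genes for linker histone H1, 18 for H2A, 18 for H2B, 12 for H3 and 13 for H4. The Hist1 cluster on chromosome 13 held 54 of them, the Hist2 cluster on chromosome 3 held 10, 2 were on chromosome 11 and 1 was on chromosome 6 (GRCm38). A further 3 histone-named entries are not annotated as protein-coding and were left out.

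Core histones H2A, H2B, H3 and H4 form the protein spool around which DNA is wound, and H1 binds the DNA between spools. The clustered genes supply most histone protein during S phase, when new DNA must be packaged, and their messengers are unusual in ending with a short hairpin instead of a poly(A) tail. The hairpin is bound by Slbp, which is needed for processing, translation and the timely decay of the messenger. Some clustered genes also give longer, polyadenylated transcripts, above all in cells that have stopped dividing. Many histone variants encoded outside the clusters, such as H3f3b, carry ordinary tails and are made throughout the cell cycle. The kit used here to prepare libraries selects polyadenylated RNA, so the counts describe mainly the tailed forms and not the whole pool of histone messengers.

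Wild-type NIH3T3 cells, a mouse embryonic fibroblast line, were compared with dNVEGF cells, an NIH3T3 derivative from which Cas9, a pair of guides and donor cassettes removed the coding stretch of N-VEGF, upstream of the canonical VEGF start. Each line was kept in normoxia or for 16 h in hypoxia below 0.2% oxygen, with 3 samples in each of the 4 groups. The study kept 4 clones carrying the cassette and gave 2 of them the recombinase that cuts it out; which clone was sequenced is not stated in the sources used here, so a feature of a clone and an effect of the deletion cannot be told apart. The question was how the absence of N-VEGF alters the transcriptional response to hypoxia. Gene counts cannot show the loss of part of a gene, so the genotype was not checked here. The labels do not say whether the 3 samples of a group were separate cultures, and p-values then measure the spread between these samples, which may be technical.

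Total counts ranged from 30519052 to 43056690 per sample, and the 67 histone genes took 2362 to 4134 of these, between 0.00625% and 0.0108%. All 8 hypoxia reporter genes rose in both lines. Fibroblast markers summed to between 16813 and 42587 CPM (counts scaled to library size and TMM factors), against at most 8.80 for epithelial, 25.1 for endothelial and 7.56 for hematopoietic markers, with Epcam at 0 throughout. The endothelial sum was 20.3 to 25.1 CPM in hypoxic dNVEGF samples and 1.81 to 8.04 elsewhere. Wild-type normoxia replicate 2 stood apart: its log counts correlated at 0.956 with replicate 1 and 0.957 with replicate 3, which correlated with each other at 0.996. In dNVEGF normoxia, replicate 2 correlated at 0.986 with either of the others. Both normoxia samples numbered 2 carried more messenger of replication genes. Mcm5, a subunit of the replicative helicase, was at 423 CPM in wild-type replicate 2 against 66.7 and 61.4 in replicates 1 and 3, and at 352 against 218 and 211 in dNVEGF. The calls that histone genes gain without these samples are given after the class sums. In bulk samples, more RNA per cell and more cells in one state cannot be told apart.

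The hairpin was looked for in the annotated transcript of each gene as a perfect stem of 6 base pairs around a loop of 4 bases, opening with GG and holding at least 2 T in the loop. It was found in 46 of the 67 genes, in 8 forms. The following are shown because they belong to genes on which the results turn. Capitals mark the hairpin, lower case the 5 bases on each side, and sequences are given 5′ to 3′ as DNA in GRCm38.
Hist1h1c: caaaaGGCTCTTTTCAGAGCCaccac
Hist1h2ac: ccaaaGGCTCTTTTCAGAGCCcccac
Hist2h3c2: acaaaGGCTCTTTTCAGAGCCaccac
Hist1h3g: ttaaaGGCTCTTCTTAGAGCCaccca
Hist1h4h: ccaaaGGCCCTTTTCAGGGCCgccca
Hist2h4: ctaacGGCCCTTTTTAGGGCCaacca
Hist1h4j: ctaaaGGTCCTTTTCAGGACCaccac
The form of the first 3 was shared by 26 genes, of which 3 encode H1, 10 H2A, 8 H2B and 5 H3. H4 genes carried other forms, the form shown for Hist1h4h being present in 7 of them. The form of Hist1h3g was found in that gene alone. No such hairpin was found in the annotated transcripts of 21 genes, among them Hist1h2bc and Hist2h2be, which says only that these letters do not occur there.

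Genes were seen to differing extents by the annotated end of their transcript. Of 23 genes whose transcript ends within 100 bases of the hairpin, 2 passed the filter on low counts, and the class held 2.33% of all histone counts. Of 23 genes whose transcript runs further, 16 passed, with 74.9% of the counts. Of the 21 genes without the hairpin, 4 passed, with 22.8%. Median levels in the 3 classes were 0.105, 0.253 and 0.0227 CPM per kilobase of exon. Across the 46 genes with a hairpin, the length of the annotated tail and the level per kilobase had a Spearman correlation of 0.45, given as a description over genes that share libraries and, in part, sequence. The share of 80-base reads unique to a gene among annotated transcripts moved with the same classes. Its medians were 45.2% for the short ends, 79.8% for the longer ones and 28.8% without the hairpin. Over all 67 genes this share had a Spearman correlation of 0.52 with the level per kilobase, and its part in the pattern was not tested.

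**Figure D1:**
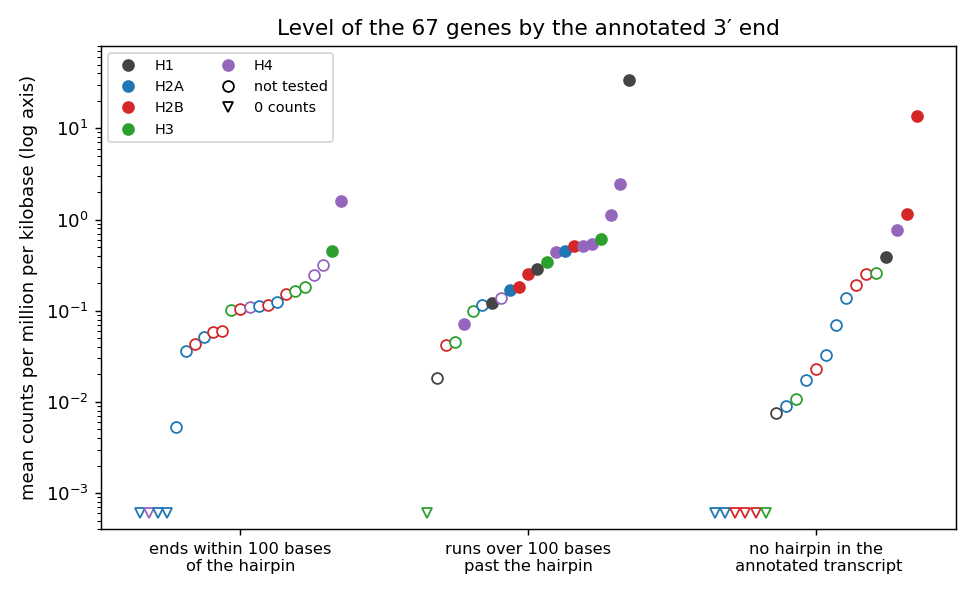
Mean level over the 12 samples (CPM per kilobase, log axis) of each of the 67 genes, ordered within 3 classes of annotated 3′ end and coloured by histone class. Filled points passed the filter, and triangles mark the 11 genes with 0 counts. Among genes that end within 100 bases of the hairpin, the filled points are Hist1h3g and Hist1h4h.

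In all, 22 genes passed the filter (4 for H1, 2 for H2A, 5 for H2B, 3 for H3 and 8 for H4) and 45 did not. Among the 45, 11 had no count in any sample, 34 had some, and none exceeded 14 counts in a sample. A count of 0 allows a level of up to 3 counts, which is 0.0578 to 0.103 CPM depending on the sample and covers counting error only. Histone genes of one class are near copies, and by default the counting tool leaves out reads that match several places; the setting used is not given in the sources used here, and levels of near copies are uncertain. A median of 79.2% of the possible 80-base reads were unique in the exons of genes that passed, against 4.17% in those at 0, and 5 of the genes at 0 had no unique read at all. Hist1h2ae, the H2A gene ranking next after the tested ones, averaged 0.081 CPM. All 18 H2A genes, Hist1h2ac among them, have exons that overlap another entry on the opposite strand. Over all 67 genes, 24 have exons overlapping some entry. The kit does not mark strand, so reads from shared stretches may go uncounted, and H2A levels are uncertain.

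A few genes carried nearly all the signal. Hist1h1c, which encodes linker histone H1.2, made up 62.3% of all histone counts, and Hist1h2bc, an H2B gene, 17.9%. Hist2h2be followed with 3.73% and Hist1h4i with 2.01%, so that 4 genes held 86.0%. Per kilobase of exon the order was Hist1h1c at 33.7 CPM, Hist1h2bc at 13.8, Hist1h4i at 2.43, Hist1h4h at 1.60, Hist2h2be at 1.15 and Hist2h4 at 1.11, while the other tested genes lay between 0.0709 and 0.765. The remaining genes rest on few reads, and their single values carry wide counting error.

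**Figure D2:**
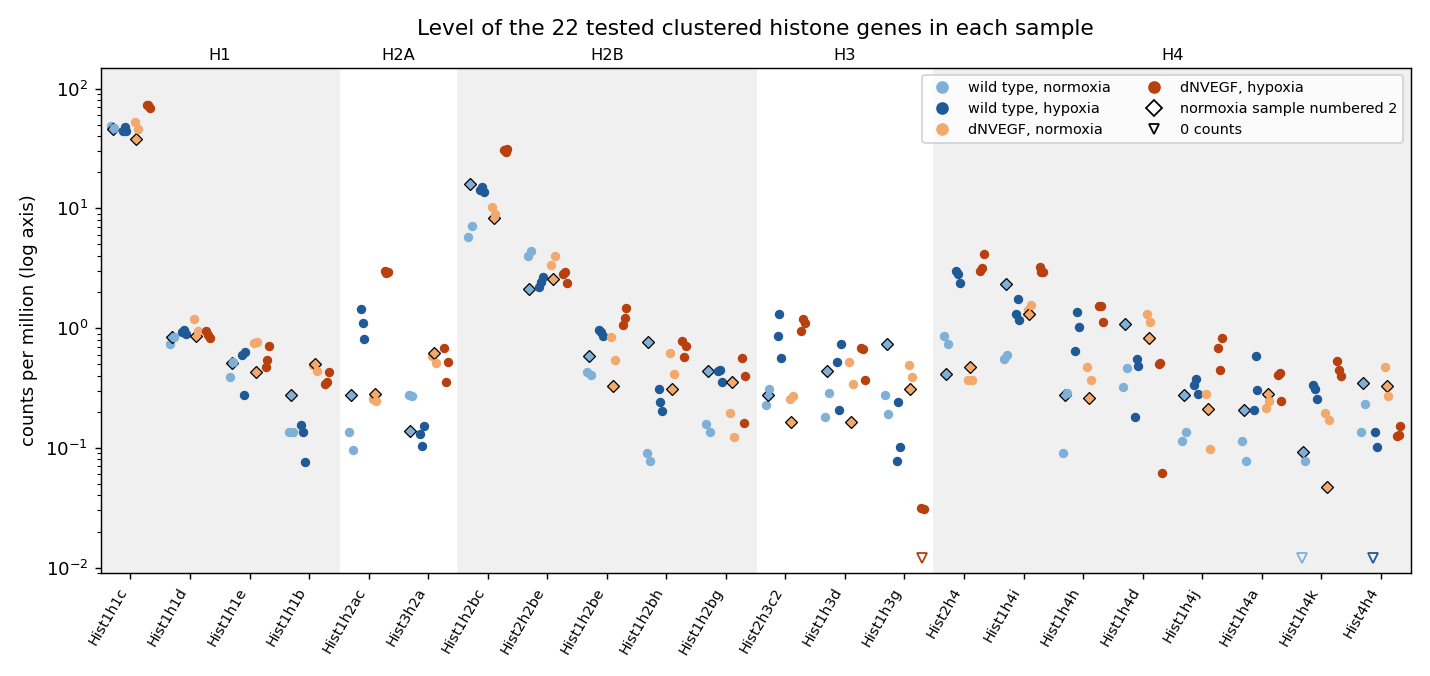
CPM (log axis) of the 22 tested genes in each of the 12 samples, grouped by histone class and coloured by group. Diamonds mark the normoxia samples numbered 2 and open triangles samples with 0 counts. For Hist1h2bc, 2 wild-type normoxia samples sit at 5.75 and 7.11 and the sample numbered 2 at 16, within reach of wild-type hypoxia.

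In wild-type cells, hypoxia raised 7 of the 22 tested genes and lowered 0. The genes that rose were Hist1h2ac, Hist1h4k, Hist1h4h, Hist2h4, Hist2h3c2, Hist1h4a and Hist1h2be, 4 of them for H4 and 1 each for H2A, H2B and H3. None of the 4 tested H1 genes was called. Among all 14724 tested genes, 18.2% were called higher and 18.3% lower, against 31.8% and 0 for the tested histone genes. A gene could pass the filter through a single group, so these shares do not describe all 67. The median log2 fold change of the tested histone genes was 0.43, beside -0.07 over all genes, and leaving out wild-type normoxia replicate 2 moved it to 1.15. At an unadjusted p under 0.05, 2 histone genes were lower by edgeR's quasi-likelihood test, and DESeq2 also called 0 lower. With libraries scaled to their total counts alone, the median of all genes moved from -0.07 to -0.30 and 6 histone genes were called higher and 2 lower, where 12.8% and 32.7% of all genes were called.

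Hist1h2ac, an H2A gene, showed the largest rise. Its level was 0.137, 0.279 and 0.0963 CPM in wild-type normoxia and 1.45, 1.1 and 0.815 in hypoxia. Every hypoxic sample was above every normoxic one, on 120 against 23 reads in all, and the log2 fold change was 2.72 ± 0.34 (SE, n = 3 per group, adjusted p = 0.00012 by edgeR's quasi-likelihood test). The gene lies at chr13:23681467-23683948 on the minus strand, head to head with an H2B gene: its start is 250 bases from that of Hist1h2bc, at chr13:23684199-23692908 on the plus strand. Of 13 such divergent pairs among the 67 genes, 12 joined an H2A with an H2B gene, and this was the single pair with both genes tested. Hist1h2bc was at 5.75, 16 and 7.11 CPM in wild-type normoxia and 14.2, 15 and 13.8 in hypoxia. The groups overlapped through replicate 2 and the gene was not called (log2 fold change 0.58 ± 0.30 SE, adjusted p = 0.152). With both normoxia samples numbered 2 left out its log2 fold change was 1.15, and the adjusted p ranged from 1.71e-09 to 0.39 over the alternatives.

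Several H4 genes rose together. Hist2h4 was at 0.867, 0.418 and 0.732 CPM in normoxia and 2.98, 2.84 and 2.39 in hypoxia, without overlap (log2 fold change 2.02 ± 0.26 SE, adjusted p = 0.000135). It is an H4 gene of the Hist2 cluster, at chr3:96261682-96263311, whose every 80-base read was unique among annotated transcripts. Hist1h4h went from 0.0913, 0.279 and 0.289 to 0.649, 1.37 and 1.02 CPM (2.16 ± 0.41, adjusted p = 0.00189), again without overlap. Hist1h4k was found at 0, 4 and 4 reads in normoxia and 13, 9 and 10 in hypoxia (2.32 ± 0.62, adjusted p = 0.0134). The ratio of its summed reads, scaled to depth, was 5.19, with an exact 95% conditional interval of 2.34 to 13.0 that covers counting error only. Of its possible 80-base reads, 32.6% were unique, so its level is uncertain. Hist1h4a was at 0.114, 0.209 and 0.077 CPM in normoxia and 0.208, 0.582 and 0.306 in hypoxia, with overlap (1.42 ± 0.47, adjusted p = 0.034), and its call held in 12 of 18 alternatives, with adjusted p from 0.00449 to 0.152, being lost without wild-type normoxia replicate 1 or 3, wild-type hypoxia replicate 2 or 3, or dNVEGF normoxia replicate 3, and with no filter on low counts. Hist1h4i, the H4 gene with the highest level per kilobase, was at 0.548, 2.34 and 0.597 CPM in normoxia and 1.32, 1.75 and 1.17 in hypoxia and was not called (0.28 ± 0.46, adjusted p = 0.663), its normoxic replicate 2 being the highest of the 6 samples. Without that sample its log2 fold change was 1.29 (adjusted p = 0.000286), and without both normoxia samples numbered 2 it was 1.28.

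The H3 gene Hist2h3c2 was at 0.228, 0.279 and 0.308 CPM in normoxia and 0.856, 1.30 and 0.560 in hypoxia (log2 fold change 1.70 ± 0.33 SE, adjusted p = 0.00198), without overlap. It shares its coding sequence with near copies, and 37.6% of its possible reads were unique. Hist1h3d, another H3 gene, was at 0.183, 0.441 and 0.289 CPM in normoxia and 0.519, 0.205 and 0.739 in hypoxia, with overlap, and was not called (0.71 ± 0.52, adjusted p = 0.309). Without both normoxia samples numbered 2 its log2 fold change was 1.08 (adjusted p = 0.0413), and in dNVEGF it was 0.74 ± 0.51 and not called (adjusted p = 0.248). The H2B gene Hist1h2be rose from 0.433, 0.580 and 0.404 to 0.960, 0.924 and 0.866 CPM (0.96 ± 0.31, adjusted p = 0.0327). This call held in 13 of 20 alternatives, with adjusted p between 0.00131 and 0.0963, and the exons of the gene overlap those of Hist1h1e on the same strand. By contrast, Hist1h1c was level, at 49.2, 45.8 and 47.0 CPM in normoxia and 44.2, 48.1 and 44.1 in hypoxia, with a log2 fold change of -0.06 ± 0.11 (SE, adjusted p = 0.72). The other H1 genes with the highest levels, Hist1h1d and Hist1h1e, had log2 fold changes of 0.20 and 0.11 and were not called.

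In dNVEGF cells, hypoxia raised 9 tested histone genes and lowered 2. The 9 were Hist1h2ac, Hist2h4, Hist2h3c2, Hist1h4h, Hist1h2bc, Hist1h4k, Hist1h4j, Hist1h2be and Hist1h1c, and 6 of them were also called higher in wild-type cells. Hist1h3g and Hist1h4d fell. Among all tested genes 26.9% were called higher and 26.4% lower, against 40.9% and 9.09% of the tested histone genes, whose median log2 fold change was 0.69. The 2 hypoxia comparisons have no samples in common. With total counts alone the median of all genes moved from -0.01 to -0.41, and 6 histone genes were called higher and 5 lower, beside 15.3% and 44.5% of all genes.

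**Figure D3:**
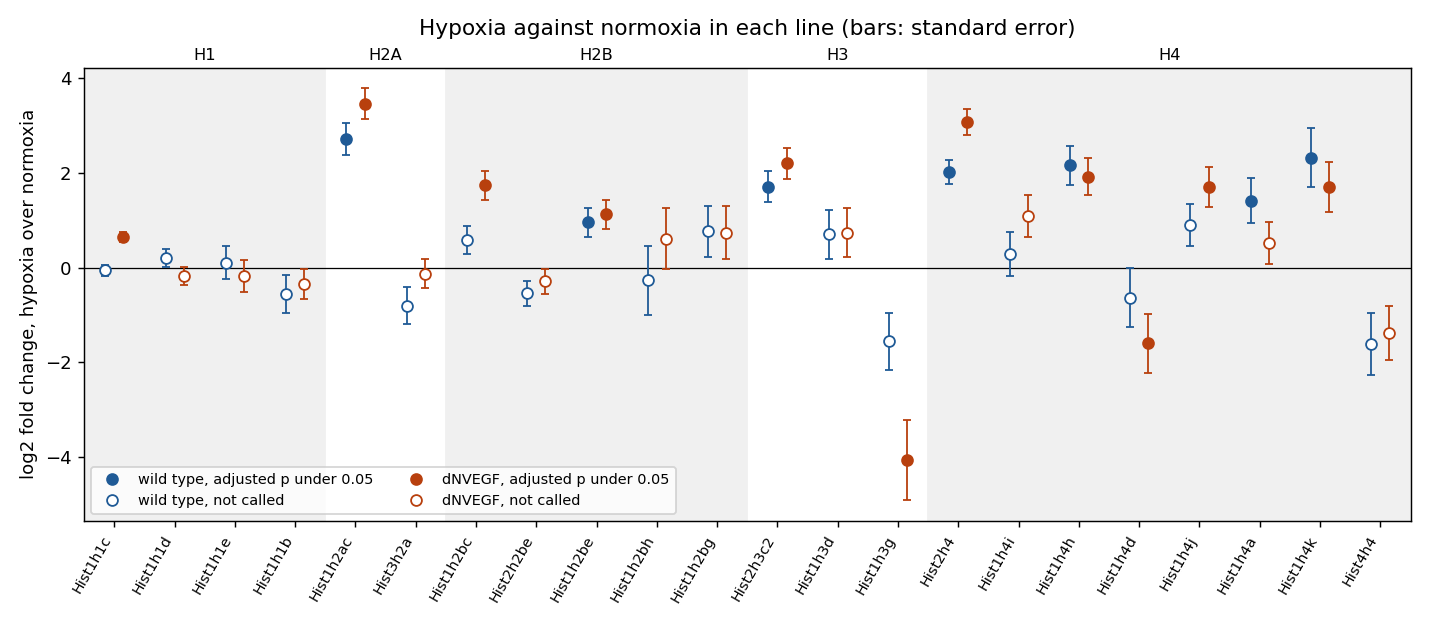
Log2 fold change of the 22 tested genes, hypoxia over normoxia, in wild-type and dNVEGF cells, with the standard error of the fit (3 samples per group). Filled points have an adjusted p under 0.05. Hist1h2ac and Hist2h4 lie highest in dNVEGF, at 3.47 and 3.08, and Hist1h3g lowest, at -4.06.

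Hist1h2ac was at 0.258, 0.284 and 0.245 CPM in normoxic dNVEGF samples and 2.97, 2.89 and 2.94 in hypoxic ones (log2 fold change 3.47 ± 0.32 SE, adjusted p = 6.88e-06). The spread within each group was small beside this difference. Its divergent neighbour Hist1h2bc went from 10.2, 8.38 and 8.96 to 30.9, 29.6 and 31.6 CPM (1.74 ± 0.30, adjusted p = 0.000595), so both genes of the pair were called in this line. Hist2h2be, an H2B gene whose divergent H2A neighbour Hist2h2ac did not pass the filter, was at 3.36, 2.58 and 4.02 CPM in normoxia and 2.85, 2.96 and 2.36 in hypoxia and was not called (-0.29 ± 0.26, adjusted p = 0.385). The promoter of Hist1h2ac is shown because it covers most of the interval it shares with Hist1h2bc, and the promoters of Hist2h3c2 and Hist1h3g because these genes moved most among H3 genes, in opposite directions. They were picked after their values were seen. Each run gives the 250 bases before the RefSeq start in the gene's own direction, 5′ to 3′ (GRCm38.p6), at chr13:23683960-23684209 (minus strand), chr3:96239128-96239377 (minus strand) and chr13:23535168-23535417 (plus strand). Capitals mark a CCAAT box, a TATAAA element or the letters ACGTG, on either strand.
Hist1h2ac: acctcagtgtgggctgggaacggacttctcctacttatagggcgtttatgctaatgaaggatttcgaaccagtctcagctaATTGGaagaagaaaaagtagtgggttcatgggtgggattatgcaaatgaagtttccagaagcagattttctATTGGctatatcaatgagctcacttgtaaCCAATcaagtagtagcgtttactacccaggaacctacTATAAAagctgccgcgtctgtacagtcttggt
Hist2h3c2: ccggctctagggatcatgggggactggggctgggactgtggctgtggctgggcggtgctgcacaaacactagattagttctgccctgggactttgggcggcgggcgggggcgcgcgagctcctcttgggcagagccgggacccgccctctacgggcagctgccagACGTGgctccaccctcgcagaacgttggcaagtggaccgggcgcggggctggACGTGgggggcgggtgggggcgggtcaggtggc
Hist1h3g: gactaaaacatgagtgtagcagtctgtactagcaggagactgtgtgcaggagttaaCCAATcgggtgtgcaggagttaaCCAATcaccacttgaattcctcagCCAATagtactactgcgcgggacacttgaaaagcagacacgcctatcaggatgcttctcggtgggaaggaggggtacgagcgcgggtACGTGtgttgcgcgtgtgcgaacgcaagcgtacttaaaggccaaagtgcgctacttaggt
The CCAAT box is a known element of histone promoters, TATAAA places the start of transcription, and ACGTG is the core of the hypoxia response element. RefSeq promoters were matched for 61 of the 67 genes. CCAAT was present in 82.0% of these against 33.8% of all 32851 promoters, TATAAA in 47.5% against 12.4%, and ACGTG in 19.7% against 16.6%. Outside H4, 47 of 49 promoters held CCAAT, and in H4 3 of 12 did. The letters were counted as such, and binding was not measured.

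Hist2h4 rose in dNVEGF cells from 0.366, 0.474 and 0.367 to 2.97, 3.15 and 4.14 CPM (log2 fold change 3.08 ± 0.28 SE, adjusted p = 5.2e-06), without overlap. Hist2h3c2 rose from 0.258, 0.166 and 0.269 to 0.939, 1.19 and 1.1 CPM (2.2 ± 0.34, adjusted p = 0.000242). Both belong to the Hist2 cluster. Hist1h4h rose from 0.474, 0.260 and 0.367 to 1.53, 1.54 and 1.13 CPM (1.92 ± 0.39, adjusted p = 0.00168) and Hist1h4k, from 9, 2 and 7 to 17, 14 and 13 reads, had a log2 fold change of 1.71 ± 0.53 (adjusted p = 0.0185), which was lost with total counts alone and without dNVEGF normoxia replicate 2 or hypoxia replicate 1 (adjusted p up to 0.0657). Hist1h2be had a log2 fold change of 1.13 ± 0.30 (adjusted p = 0.0092), lost with total counts alone (adjusted p = 0.0644). Among H1 genes, Hist1h1c rose from 52.8, 38.2 and 46.3 to 73.7, 73.1 and 68.7 CPM (0.65 ± 0.11, adjusted p = 0.00058), the lowest hypoxic sample being above the highest normoxic one. With total counts alone its log2 fold change was 0.24, and the adjusted p ranged from 4.69e-07 to 0.141 over 20 alternatives. Hist1h1d and Hist1h1e, of the same cluster, had log2 fold changes of -0.18 and -0.17 and were not called.

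Hist1h3g, an H3 gene at chr13:23535422-23535951, was almost lost from hypoxic dNVEGF libraries. It had 23, 13 and 16 reads in normoxia and 1, 0 and 1 in hypoxia. Normoxia over hypoxia, the ratio of summed reads scaled to depth was 19.2, with an exact 95% conditional interval of 5.06 to 163, and the fall was called (adjusted p = 0.00212 by edgeR's quasi-likelihood test). In wild-type cells the gene had 12, 32 and 10 reads in normoxia and 3, 7 and 4 in hypoxia, a ratio of 2.97 with an interval of 1.63 to 5.80, which was not called (adjusted p = 0.0644). Both intervals cover counting error only. Of the 54 wild-type normoxic reads 32 came from replicate 2, and without it the log2 fold change went from -1.55 to -0.79 (adjusted p = 0.213). Its annotated transcript ends 47 bases past the hairpin, much like that of Hist1h4h, which rose and ends 46 bases past it. Hist1h4d, an H4 gene with a tail of 770 bases, fell from 1.31, 0.829 and 1.13 to 0.501, 0.514 and 0.0613 CPM (log2 fold change -1.60 ± 0.63 SE, adjusted p = 0.0496). This call held in 9 of 19 alternatives, with adjusted p from 0.000628 to 0.137.

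Between the lines in normoxia, 2 histone genes were called, both higher in dNVEGF cells, where 1.39% of all tested genes were called higher and 2.97% lower. Hist1h1b, which encodes linker histone H1.5, was at 0.137, 0.279 and 0.135 CPM in wild-type and 0.495, 0.497 and 0.441 in dNVEGF samples (log2 fold change 1.38 ± 0.33 SE, adjusted p = 0.0403). Hist3h2a, an H2A gene on chromosome 11 with exons that overlap Trim17, was at 0.274, 0.139 and 0.270 CPM in wild-type and 0.581, 0.616 and 0.514 in dNVEGF samples (1.31 ± 0.32, adjusted p = 0.0454). In both genes the groups did not overlap, yet the calls stood close to the threshold. Same-numbered normoxia samples of the 2 lines deviated together, and a fit of these 6 samples with the number as a block gave adjusted p-values of 0.243 and 0.252 and 0 calls. Leaving out wild-type normoxia replicate 2 gave 9 calls, and leaving out any other single sample gave 0. Without both normoxia samples numbered 2 there were 9 as well, where 27.8% of all tested genes were called higher and 25.8% lower. The range over all alternatives was 0.000762 to 0.311 for Hist1h1b and 0.0118 to 0.334 for Hist3h2a. Counts of lower genes were 0 by edgeR and DESeq2, with 1 at an unadjusted p under 0.05.

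In hypoxia, 5 histone genes were higher in dNVEGF than in wild-type cells and 0 lower, beside 10.8% and 9.36% of all tested genes. For the lower direction, 1 histone gene had an unadjusted p under 0.05 by edgeR's test and DESeq2 called 0. Hist3h2a was at 0.130, 0.103 and 0.153 CPM in wild-type and 0.689, 0.354 and 0.521 in dNVEGF samples, on 14 against 50 reads (log2 fold change 1.98 ± 0.37 SE, adjusted p = 0.00444). Hist1h1b was at 0.156, 0.137 and 0.0764 against 0.344, 0.354 and 0.429 CPM (1.60 ± 0.38, adjusted p = 0.0137), a call lost without wild-type or dNVEGF hypoxia replicate 3 (adjusted p = 0.0714 and 0.0589). Hist1h2ac differed by 1.39 ± 0.28 (adjusted p = 0.00684) and its neighbour Hist1h2bc by 1.1 ± 0.30 (adjusted p = 0.0242), a call lost on leaving out any 1 of the 6 hypoxic samples (14 of 20 alternatives kept it, with adjusted p from 2.53e-10 to 0.0921). Hist1h1c differed by 0.66 ± 0.11 (adjusted p = 0.00272), the 3 dNVEGF samples lying at 68.7 to 73.7 CPM and the wild-type ones at 44.1 to 48.1. These values share their hypoxic samples with the comparisons above. Among H4 genes, 0 of the 8 tested were called with 12 samples and 2 without both normoxia samples numbered 2, Hist2h4 having a difference of 0.32 ± 0.24 and Hist1h4h of 0.48 ± 0.36. With wild-type normoxia replicate 2 left out of the fit, 9 genes were called, and with wild-type hypoxia replicate 3 or dNVEGF hypoxia replicate 3 left out, 3 were. Without both normoxia samples numbered 2 the count was also 9, beside 27.5% of all tested genes called higher and 28.3% lower.

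The difference between the responses of the lines was tested as an interaction. Hist1h1c was the single histone gene called, its response being higher in dNVEGF by 0.71 ± 0.16 on the log2 scale (adjusted p = 0.0385), where 2.22% of all tested genes were called higher and 1.15% lower. This call held in 8 of 19 alternatives, with adjusted p from 2.17e-05 to 0.126, and was lost on leaving out any 1 of the 3 wild-type hypoxia, the 3 dNVEGF hypoxia, or wild-type normoxia replicates 1 or 3, or dNVEGF normoxia replicate 3. No histone gene was lower at an unadjusted p under 0.05, and DESeq2 called 0 lower. For the remaining genes the responses were not shown to differ: Hist2h4 had an interaction of 1.06 ± 0.37 (adjusted p = 0.137), Hist1h2bc of 1.16 ± 0.42 (adjusted p = 0.143), Hist1h2ac of 0.75 ± 0.49 (adjusted p = 0.411) and Hist1h3g of -2.51 ± 1.15 (adjusted p = 0.241).

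The classes differed in how their summed level moved, which is given as a description. The sum over all 67 genes was 69.1 ± 6.60 CPM (SD, n = 3) in wild-type normoxia, 76.2 ± 4.04 in wild-type hypoxia, 70.0 ± 10.4 in dNVEGF normoxia and 126 ± 2.71 in dNVEGF hypoxia. Hypoxia over normoxia, the log2 ratio was 0.14 in wild-type cells, where the samples overlapped and scaling to total counts turned the sign (-0.0798), and 0.86 in dNVEGF, where they did not (0.46 with total counts). H1 went from 48.8 ± 1.54 to 47.1 ± 2.12 CPM in the wild type, against a change in dNVEGF from 47.9 ± 7.64 to 73.7 ± 2.58. That difference lay in Hist1h1c, since the other 5 H1 genes together were at 2.14 ± 0.33 CPM in dNVEGF normoxia and 1.88 ± 0.15 in hypoxia, with overlapping samples, and at 1.48 ± 0.22 and 1.55 ± 0.16 in the wild type. H2B, carried by Hist1h2bc, went from 14.6 ± 5.29 to 18.7 ± 0.60 and from 14.5 ± 1.76 to 36.4 ± 1.03. Without Hist1h2bc, the other 17 H2B genes summed to 4.98 and 4.33 CPM in wild-type normoxia and hypoxia, every hypoxic sample being below every normoxic one, and to 5.31 and 5.62 in dNVEGF, with overlap. Hist2h2be alone went from 3.53 to 2.44 CPM in the wild type, a larger fall than that of the wild-type sum. The rest of these genes together did not fall there. The full H2B sums overlapped in the wild type, through replicate 2 at 20.6, and not in dNVEGF. H2A, whose counted level is uncertain because every gene of the class overlaps another entry, had the least signal at the start. Its sum went from 0.731 ± 0.11 to 1.56 ± 0.23 in the wild type. In dNVEGF it went from 1.20 ± 0.22 to 3.91 ± 0.24, and samples overlapped in neither line. That difference lay in Hist1h2ac: the other 17 H2A genes summed to 0.561 ± 0.031 and 0.442 ± 0.092 CPM in wild-type normoxia and hypoxia, every hypoxic sample being below every normoxic one, and to 0.941 ± 0.21 and 0.971 ± 0.20 in dNVEGF, where the samples overlapped. H4 went from 3.55 ± 1.69 to 7.01 ± 1.17 and from 4.68 ± 0.55 to 10.3 ± 0.40, also without overlap, and without Hist2h4, left out after seeing the data as Hist1h2ac was, the wild-type sums of the other 12 H4 genes overlapped, at 2.88 ± 1.92 and 4.27 ± 1.14, and those of dNVEGF did not, at 4.28 ± 0.60 and 6.89 ± 0.71. Without Hist1h4i as well, also left out after seeing the data, the sums of the other 11 overlapped in both lines. The H3 sums of normoxia and hypoxia overlapped in both lines. The 45 genes that did not pass the filter summed to 1.48, 1.37, 2.33 and 2.09 CPM, with overlapping normoxic and hypoxic samples in each line. The share of H1 in all histone counts was 71.1% ± 8.23, 61.8% ± 0.51, 68.3% ± 0.80 and 58.3% ± 1.25 in the 4 groups.

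**Figure D4:**
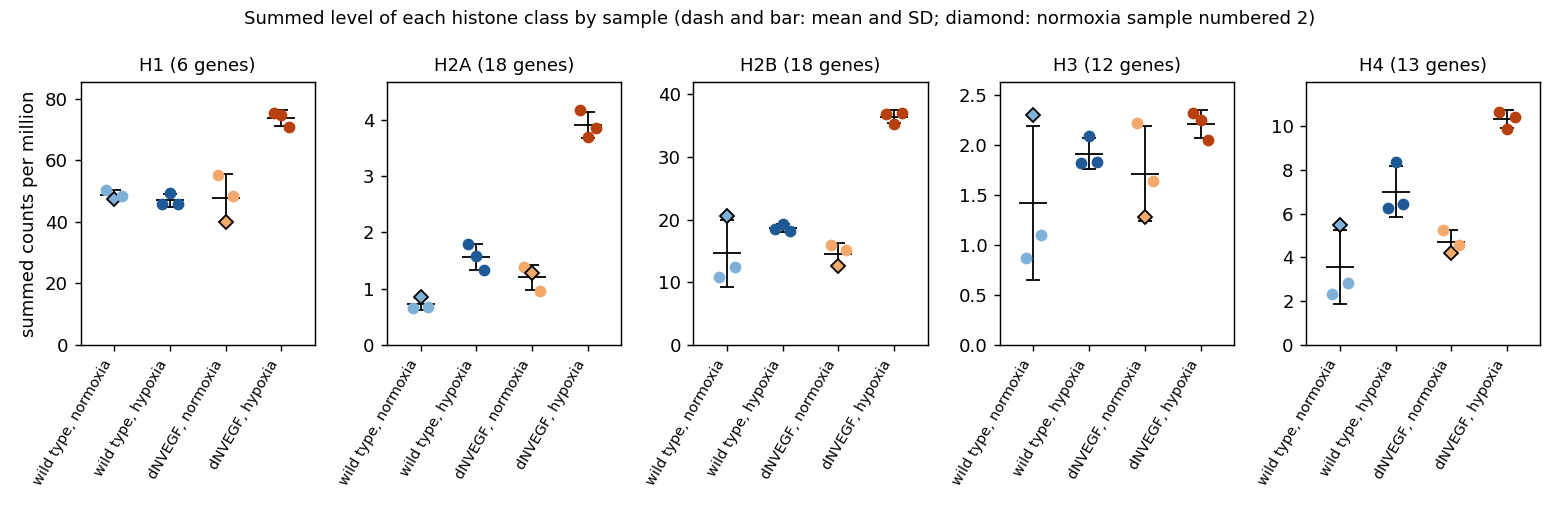
Summed CPM of each histone class in the 12 samples (linear axes from 0, which differ between panels), with the mean and SD of each group of 3. Diamonds mark the normoxia samples numbered 2. H2A and H4 sums are higher in every hypoxic than in every normoxic sample of the same line, the H2A difference lying in Hist1h2ac. H4 sums overlap in the wild type without Hist2h4, and in both lines without Hist2h4 and Hist1h4i, left out after seeing the data. H1 sums are separated in dNVEGF and overlap in the wild type.

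Wild-type normoxia replicate 2 moved many of the calls. It held 33 reads of Hist1h2bh, an H2B gene, against 4 and 4 in the other wild-type normoxia samples, 101 of Hist1h4i against 24 and 31, 32 of Hist1h3g against 12 and 10, and 690 of Hist1h2bc against 252 and 369 (Hist1h2bh was chosen after its values were seen). In the opposite direction, Hist2h2be had 92 reads there against 177 and 230. With both normoxia samples numbered 2 left out, 13 histone genes were called higher and 1 lower in wild-type hypoxia, where 32.8% of 15083 tested genes were called higher and 32.5% lower, and with the wild-type sample alone left out, 12 and 2. All 7 genes called from 12 samples were among the 14 in either fit. Hist1h2bh turned from a log2 fold change of -0.27 to 1.56, and Hist2h2be was the gene called lower, at -0.79. The other genes that gained a call were Hist1h2bc (1.15), Hist1h2bg (0.77 to 1.48), Hist1h3d (1.08), Hist1h4i (1.28) and Hist1h4j (0.91 to 1.37), of which Hist1h2bg and Hist1h4j are named after their values were seen.

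The same omission moved the other comparisons too. In dNVEGF hypoxia, 11 genes were called higher and 4 lower (all genes, 35.4% and 36%), the added ones being Hist1h2bg (1.21), Hist1h4i (1.03), Hist2h2be (-0.44) and Hist4h4 (-1.46). Between the lines in normoxia, 8 were called higher and 1, Hist2h4, lower (27.8% and 25.8% of all genes), with Hist1h2bh at 2.62, Hist1h4k at 2.06, Hist1h4d at 1.63, Hist1h4i at 1.38, Hist1h2be at 0.74, Hist1h2bc at 0.58 and Hist2h4 at -1.1 added, and 9 were called with the wild-type sample alone left out. In hypoxia 8 were called higher and 1 lower (27.5% and 28.3% of all genes), with Hist1h2bh (1.44), Hist1h4i (1.13), Hist1h4j (0.998) and Hist1h3g (-2.48) added. In the interaction, Hist1h1c, Hist1h2bc and Hist2h4 were called higher and Hist1h3g and Hist1h4d lower (25.8% and 27% of all genes), the interaction being positive in 8 of the 22 genes in place of 14, and 4 were called with the wild-type sample alone left out. Since the groups then hold 2 normoxia samples per line and the shares of all genes rise as well, these counts rest on fewer samples and are not a separate line of evidence.

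**Figure D5:**
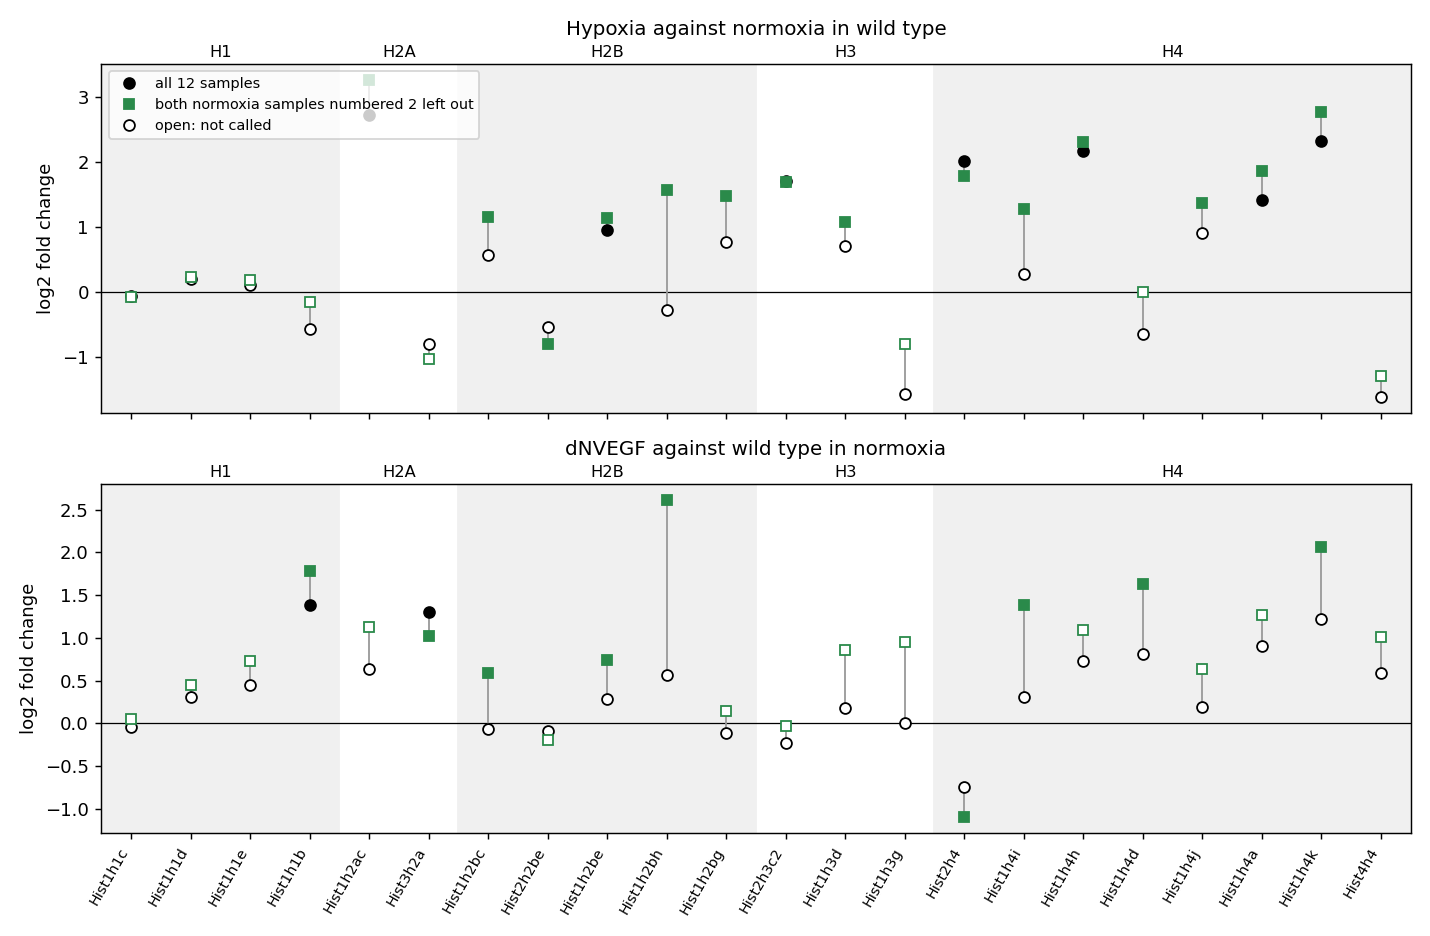
Log2 fold changes of the 22 tested genes with all 12 samples (circles) and with both normoxia samples numbered 2 left out (squares), for hypoxia against normoxia in wild type (top) and dNVEGF against wild type in normoxia (bottom). Filled symbols have an adjusted p under 0.05. Hist1h2bh and Hist1h4i move furthest upward in both panels, while Hist1h1c stays near 0.

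Genes that act together with the clustered histones were followed as lists. Of 28 genes of DNA replication and S phase, 25 fell and 0 rose in dNVEGF hypoxia (median log2 fold change -2.28), where 26.4% of all tested genes were called lower, and in wild-type cells 0 were called in either direction (median -0.55), with 3 lower and 0 higher at an unadjusted p under 0.05 and 1 lower by DESeq2. With both normoxia samples numbered 2 left out, wild-type hypoxia showed 21 rising genes and 1 falling gene, beside 32.8% and 32.5% of all genes in that fit, and dNVEGF hypoxia 1 and 27, beside 35.4% and 36%. Pcna, the sliding clamp of DNA polymerase, was at 33.5, 165 and 35.1 CPM in wild-type normoxia and 68.9, 62.4 and 68.5 in hypoxia, and at 82.9, 168 and 88.8 and then 30.7, 34.0 and 35.8 in dNVEGF. In hypoxic dNVEGF cells, then, the summed histone level was highest while those of replication genes were lowest, at 665 to 702 CPM for the list against 1018 to 4637 in the other samples. Of 10 genes of G2 and mitosis, 8 fell in wild-type and 10 in dNVEGF hypoxia, beside 18.3% and 26.4% of all genes, and without the samples numbered 2, 2 rose beside the 8 in the wild type.

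Among 17 genes of histone messenger transcription and processing, 4 fell and 0 rose in wild-type hypoxia (3 were higher at an unadjusted p under 0.05, and 1 by DESeq2), where 18.3% of all tested genes were called lower, and 9 fell and 2 rose in dNVEGF, where 26.4% were. These counts rest on the normoxia samples numbered 2: without both, 6 rose and 5 fell in the wild type, the median log2 fold change going from -0.31 to 0.07, and 4 rose and 12 fell in dNVEGF. The wild-type counts are then near the shares of all genes in that fit, 32.8% and 32.5%, and in dNVEGF these shares were 35.4% and 36%. Slbp, the hairpin-binding protein, was at 26.2, 41.1 and 26.1 CPM in dNVEGF normoxia and 12.9, 13.7 and 12.6 in hypoxia (log2 fold change -1.25 ± 0.30 SE, adjusted p = 0.0051). In wild-type cells it was at 21.5, 49.8 and 21.4 and then 26.1, 23.8 and 25.0 CPM (-0.31 ± 0.30, adjusted p = 0.449), and without both normoxia samples numbered 2 it was called higher, by 0.23 (adjusted p = 0.00621). Npat, the coactivator of clustered histone genes, fell in dNVEGF (-0.76 ± 0.13, adjusted p = 0.000613) and was at -0.34 ± 0.13 in wild-type cells (adjusted p = 0.0624; -0.22 and 0.0308 without those samples). Whether the levels of Slbp or of the replication genes had a part in the histone values was not tested.

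Of 11 replication-independent histone genes, 9 fell and 0 rose in wild-type hypoxia, where 0 rose at an unadjusted p under 0.05 or by DESeq2, and 9 fell and 1 rose in dNVEGF. Leaving out both normoxia samples numbered 2 gave 10 falling genes in each line, with 0 and 1 rising. The list includes Cenpa, which was at 30.1, 71.7 and 31.2 CPM in wild-type normoxia. Whether the falls on the list are independent of the cell cycle was not tested. H1f0, which encodes the linker histone H1.0 of resting cells, was at 535, 428 and 539 CPM in wild-type normoxia and 224, 214 and 218 in hypoxia (log2 fold change -1.20 ± 0.10 SE, adjusted p = 6.44e-06), and in dNVEGF fell by 0.69 on the log2 scale (adjusted p = 0.000184). H3f3b, an H3.3 gene, was the member that rose in dNVEGF, by 0.30 ± 0.09 (adjusted p = 0.0169). Of 13 histone chaperones, which carry histones to and from DNA, 4 fell and 0 rose in wild-type hypoxia, with 0 rising at an unadjusted p under 0.05 or by DESeq2, and 7 fell and 1 rose in dNVEGF. Without both normoxia samples numbered 2, 4 rose and 4 fell in the wild type, the median going from -0.40 to -0.08, and 1 rose and 10 fell in dNVEGF. Over all tested genes, 18.3% were called lower in wild-type and 26.4% in dNVEGF hypoxia with 12 samples, and without these samples 32.8% were higher and 32.5% lower in the wild type, near the list, and 35.4% and 36% in dNVEGF.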

How the data were processed

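The authors extracted total RNA with Trizol, prepared TruSeq v2 libraries and sequenced 80-bp single reads. Per the labels and the study's methods, reads were trimmed (Trim Galore, cutadapt 1.10), aligned to GRCm38 with TopHat2 2.1.0 and counted per gene of release 94 with HTSeq 0.6.1. The deposited values are raw counts, with no scaling. Strand use in counting is not given in the sources used here, and the kit does not mark strand. All 12 samples were grouped by their labels.

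Counts were fitted with edgeR 4.0.16 (R 4.3.3, limma 3.58.1): filterByExpr, TMM factors (0.825 to 1.21), 1 mean per group, tests by quasi-likelihood F, and p-values adjusted for the 14724 genes of each comparison by Benjamini-Hochberg. Calls have an adjusted p under 0.05. The alternatives included DESeq2 1.42.0, other scalings and filters, samples left out, and replicate number as a block. The code was tested on simulated data. Replicates differed by a chi-square of at least 2.76 per gene, so none was a duplicate. Deviations of same-numbered normoxia samples correlated at 0.378, 0.498 and 0.355 between lines, those of replicates 1 and 3 crossed at 0.347 and 0.358, and in the other comparisons at -0.018 to 0.109.

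Members, lists and alternatives were chosen with earlier results of these data known. Named genes were the 3 of highest mean CPM in each class, the called genes with the 3 largest changes in each direction of a comparison, and those called in the interaction. Hist1h4a, Hist1h4j, Hist1h2bg, Hist1h2bh and Hist4h4 were named after their values were seen. All 67 genes have the same coordinates in GENCODE M21. Hairpins and unique 80-base reads were computed from its transcripts, and promoters come from RefSeq. A unique read is one found in the transcripts of no other annotated gene. Copies elsewhere in the genome were not looked for. Figures were drawn with matplotlib.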

Additional observations from a re-analysis of the deposited data

Results flagged for a closer look

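The response of Hist1h1c differed between the lines by the interaction test, by 0.71 on the log2 scale (adjusted p = 0.0385 by edgeR's quasi-likelihood test), the gene being higher in 3 of 3 hypoxic dNVEGF samples than in any other sample. This call held in 8 of 19 alternatives and was lost in 11. The entry Hist1h2al is annotated as a pseudogene and lay outside the rule, yet carried 47 to 404 counts per sample. It rose in wild-type hypoxia by 1.59 ± 0.33 (SE, adjusted p = 0.00344) and in dNVEGF hypoxia by 1.99 ± 0.34 (adjusted p = 0.000504), without overlap of the groups in either line.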

How the results depend on the processing

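Of 26 calls on histone genes over the 5 comparisons, 15 held in every other fit that tested the gene. Not every fit tested every gene, and calls had 18 to 20 alternatives. A required fold of at least 2, not counted among these fits, lost 4: Hist1h2be in wild-type hypoxia and Hist1h1c in dNVEGF hypoxia, between the lines in hypoxia and in the interaction. Of 502 alternatives of called genes, 426 kept the call and 76 lost it. Of the 84 results without a call, 62 alternatives gave one, 45 of them with a normoxia sample numbered 2 left out. Of 110 results of single genes, 29 took the opposite sign in at least 1 alternative, 85 alternatives in all. None of the called ones did, and in 4 of the 85 the alternative made a call, for 2 genes. Hist1h2bh in wild-type hypoxia went from -0.27 to 1.56 without both normoxia samples numbered 2, and ranged from -0.76 to 1.56 over omissions of 1 sample. Hist1h2bc between the lines in normoxia went from -0.06 to 0.58, and ranged from -0.33 to 0.53. The highest value in each range was without wild-type normoxia replicate 2. The cause was not tested.

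Calls in wild-type hypoxia numbered 7, in dNVEGF hypoxia 11, between lines 2 in normoxia and 5 in hypoxia, and 1 in the interaction. A minimum of 10 counts in every sample, which leaves fewer genes tested, gave 2, 5, 0 and 2 in the first 4. Leaving out both normoxia samples numbered 2 gave 14, 15, 9, 9 and 5. Calls over all genes rose in that fit as well, to the shares given above. Omitting 1 sample at a time gave 5 to 14, 9 to 13, 0 to 9, 3 to 9 and 0 to 4. In normoxia, total counts alone gave 1, and no filter, or a fit to the 6 samples, gave 0. In hypoxia the fit to its own samples gave 8. For the interaction, total counts, no filter or a fold of at least 2 gave 0.

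The replicate block kept 7, 11, 2, 5 and 1 calls, and the block fitted to the 6 normoxia samples alone gave 0. Wild-type normoxia replicate 3 correlated slightly better with dNVEGF replicate 1 than with 3, so the pairing is a hint from the data and not from the labels.

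Log2 ratios of the histone sum were 0.14 (wild type), 0.86 (dNVEGF), 0.01 (normoxia), 0.73 (hypoxia) and 0.72 (interaction). Total counts gave -0.0798 (wild type), 0.46 (dNVEGF), 0.51 in hypoxia and 0.54 in the interaction. Without Hist1h1c, chosen after seeing the data, they were 0.55, 1.18 and, in normoxia, 0.21. Without both samples numbered 2, normoxia gave 0.20 and the interaction 0.53. Single omissions gave 0.10 to 0.22, 0.75 to 0.97, -0.09 to 0.13, 0.71 to 0.78 and 0.61 to 0.82. Depth limits what can be said of the 45 genes under the filter.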
